A study of Saccharomyces cerevisiae with 14 samples.

Results

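The genes described here encode the proteins of the small ribosomal subunit in budding yeast. They were taken as all nuclear genes whose symbol is RPS followed by a digit, which gave 56 of the 6431 nuclear genes of the RefSeq R64 annotation (the sacCer3 build). They form 24 pairs of duplicated genes, written A and B, and 8 genes present as a single copy, such as RPS2, RPS3, RPS12, RPS13, RPS15, RPS20 and RPS31.

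The study mapped Rad52 by chromatin immunoprecipitation and sequencing (ChIP-seq) and asked where Rad52 sits when enzymes that remove DNA-RNA hybrids are missing. All 11 libraries of the main experiment were made in strain 288C with 0.5 µM auxin for 4 h, wild type (WT) included. Their groups were h1D-h2D Sen1-AID (2 libraries), h1D-h2D Top1-AID (2), Sen1-AID (2), h1D-h2D (2), Top1-AID (1) and WT (2). The name h1D-h2D was read as the loss of both RNase H genes, RNH1 and RNH201, which the design text names, and AID marks a protein with an auxin-inducible degron, a tag that leads to its degradation when auxin is given. The genotype label of the h1D-h2D Top1-AID libraries names Top1 without the degron, while their titles give the degron and auxin. A separate experiment used a Gal-HO strain of the JKM background, in which galactose switches on the HO endonuclease, with 2% galactose (2 libraries) or with dextrose (1). A list of peaks holds no reads over a deleted or tagged gene, so the genotypes rest on the labels. The labels do not say that replicates were separate cultures, so p-values measure the spread between these libraries, which may be technical.

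Ribosomal protein genes are among the most heavily transcribed genes of a growing yeast cell, and Rap1, Fhl1, Ifh1 and Sfp1 switch them on together when nutrients are plentiful. RNA made on a busy gene can pair again with its template and leave the other DNA strand single. RNase H cuts the RNA of such hybrids, the helicase Sen1 unwinds them and ends some transcripts, and topoisomerase Top1 relaxes the supercoils that help them form. Rad52 binds single-stranded DNA and acts in recombination, so it marks DNA under repair.

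The 14 lists held 254 to 731 nuclear peaks, and read depth is unknown. The lists of h1D-h2D Sen1-AID and of h1D-h2D Top1-AID, called the combined mutants below, were short, with 282 ± 21 peaks (SD, n = 4), against 604 ± 88.5 in the other 7 auxin lists (SD, n = 7). The list of Sen1-AID replicate 2 stood apart from the other libraries without a combined defect, with 454 peaks of a median width of 1375.5 bp, against 731 peaks of 2258 bp in replicate 1. Results that it touches are therefore also given without it. A gene missing from a list had no peak above the caller's limit, which is not the same as no Rad52. Fewer cells with Rad52 on a gene and less Rad52 per cell cannot be told apart in such libraries. Many A and B copies are nearly identical in sequence. How the authors placed reads that match both copies is not given in the sources used here, so values that set A apart from B are uncertain.

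In WT, nearly every small subunit gene lay under a Rad52 peak. A peak overlapped 54 of the 56 genes in replicate 1 and 55 in replicate 2, while it overlapped 27.5% and 23.2% of all nuclear genes. The peaks also stood high in their lists. A peak's standing is its score percentile, from 0 for the lowest score of a list to 100 for the highest, and the score itself is the authors' value on an unstated scale. The median percentile over covered RPS genes was 86 in WT replicate 1 and 84 in replicate 2, beside 56.2 and 55 for covered genes that encode no ribosomal protein.

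The highest standing in WT belonged to RPS14B and RPS22A. RPS14B encodes a protein of the subunit platform near the exit of the mRNA channel, and RPS22A one of the subunit body. They point toward each other on chromosome X, with RPS14B at 73787-74611 on the plus strand and RPS22A at 74910-75302 on the minus strand. Only 298 bp separate them, and a single peak covered both in all 14 libraries, so their values are not independent. That peak stood at percentile 97.7 in WT replicate 1 and 96.4 in replicate 2. RPS25B followed with 98.1 and 95.2. It encodes a head protein that some viral mRNAs need, and it shares its surroundings with the small nucleolar RNA genes SNR61, SNR55 and SNR57. RPS13, whose protein binds the central domain of the small subunit RNA, stood at 95.6 and 97, and RPS19A, whose head protein is needed for subunit maturation, at 95.1 and 96.5. RPS14A, RPS12, RPS9A and RPS26B were also among the 10 with the highest mean, and each had a mean WT percentile between 94 and 95.5.

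The genes at the other end of the WT range were all members of duplicated pairs. RPS24A had no peak in either WT library, and RPS25A had a peak in WT replicate 2 alone, at percentile 41.1. RPS28A stood at 4.13 and 3.48, and RPS18B at 6.23 and 14.8. The partners of these 4 genes were covered in both WT libraries.

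**Figure D1:**
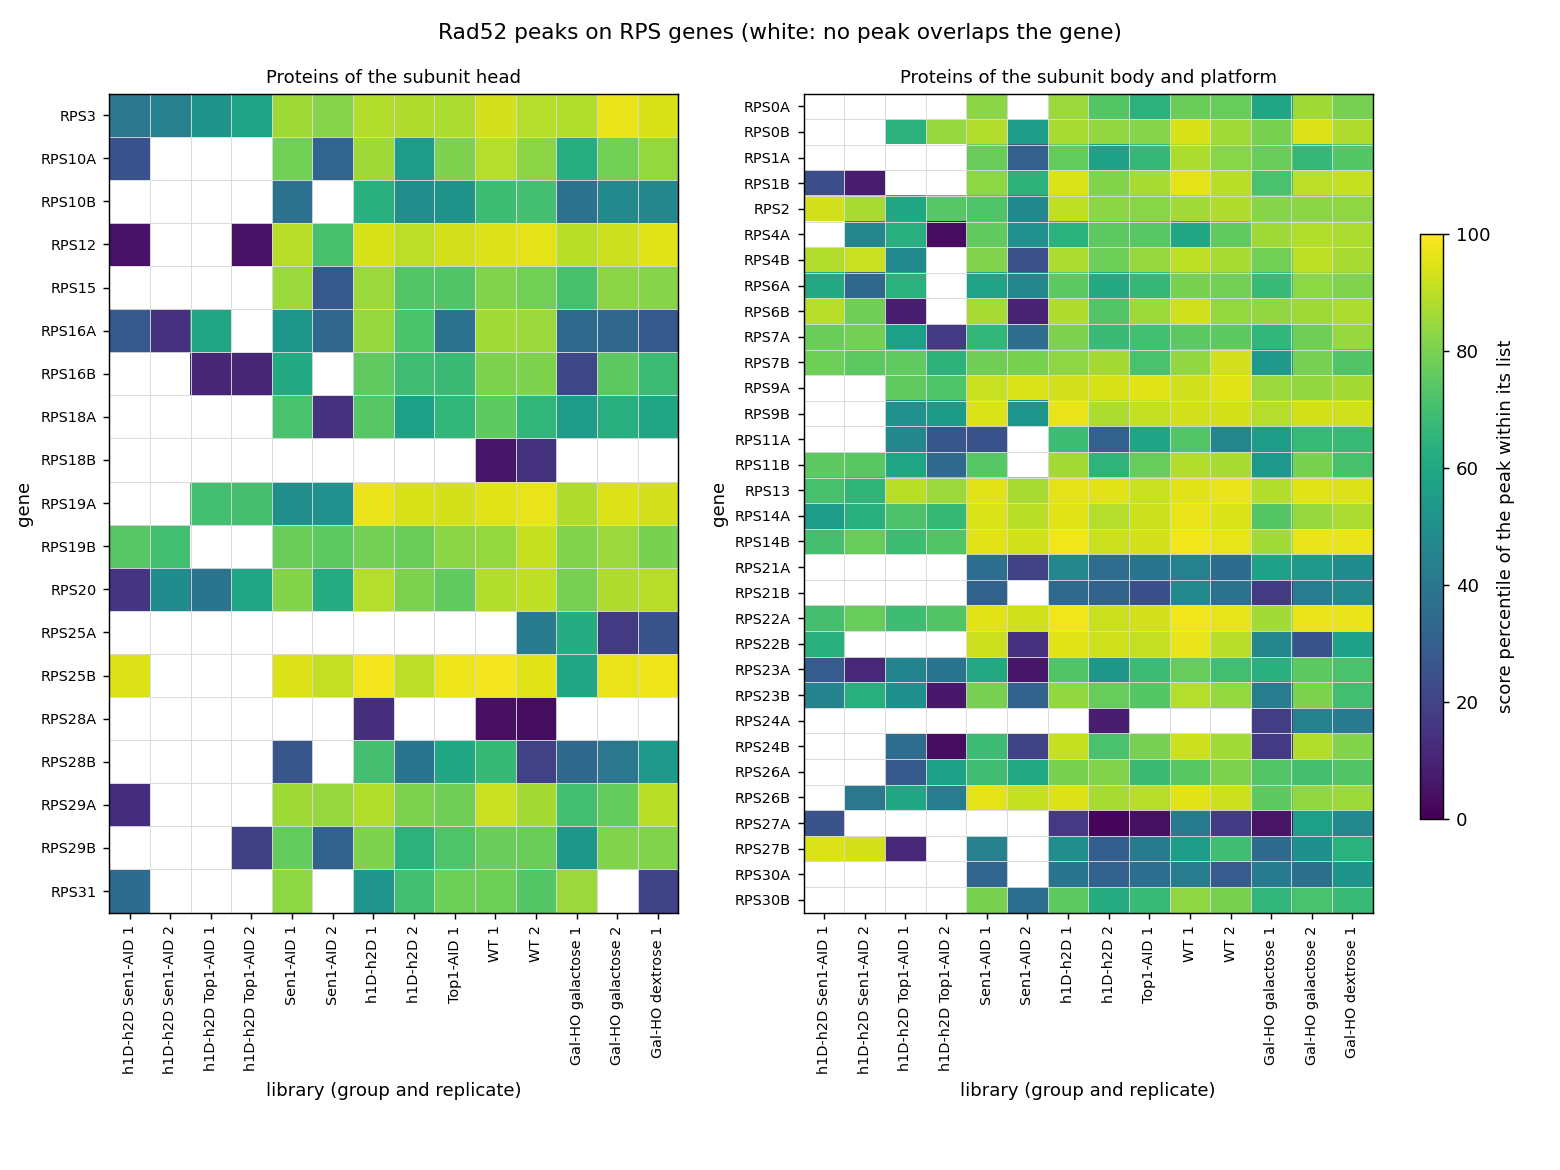
Score percentile of the peak on 51 of the 56 RPS genes (rows) in each of the 14 libraries (columns), with genes of head proteins on the left and of body and platform proteins on the right; white means that no peak overlapped the gene. The 4 combined mutant columns, leftmost in each panel, hold more white cells than any other columns; over all 56 genes they cover 25 to 30, against 54 and 55 in WT.

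Loss of RNase H together with Sen1 or Top1 came with far fewer covered small subunit genes. Peaks overlapped 30 and 25 RPS genes for h1D-h2D Sen1-AID and 30 and 26 for h1D-h2D Top1-AID. They overlapped 51 and 40 in Sen1-AID, 53 and 53 in h1D-h2D, 52 in Top1-AID, and 54 and 55 in WT. The 4 combined mutant libraries averaged 27.8 ± 2.63 RPS genes (SD, n = 4) and the other 7 averaged 51.1 ± 5.08 (SD, n = 7), a difference of -23.4 genes, and the ranges did not overlap. Without Sen1-AID replicate 2 the others averaged 53 ± 1.41 (SD, n = 6). List length moved with this count. With every list shortened to its 254 highest peaks the difference was -12.9 genes, and its part in the result was not tested.

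The drop was shared with the rest of the genome. Peaks overlapped 33.5 ± 5.8 of the 76 large subunit genes (RPL) in the combined mutants, against 72.4 ± 7.7 in the others. All nuclear genes were covered at 11.2% ± 1.81 in the combined mutants, against 23.4% ± 4.72 in the others. Percentiles rank peaks within a list, and the mutant lists are shorter, so they are not compared between strains.

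**Figure D2:**
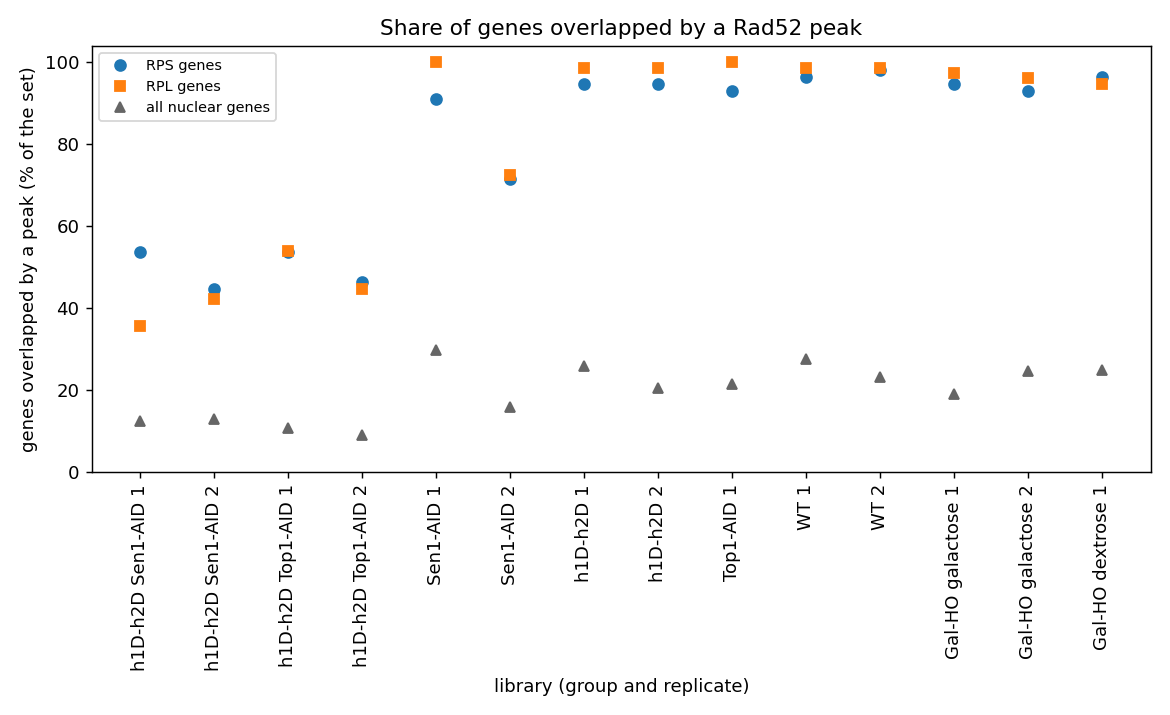
Share of RPS, RPL and all nuclear genes overlapped by at least 1 bp of a Rad52 peak in each library, in percent of the set. RPS genes lie at 44.6% to 53.6% in the 4 combined mutant libraries and at 71.4% to 98.2% in the other 7 auxin libraries.

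Gene by gene, presence was compared between the 4 combined mutant libraries and the other 7 by Fisher's exact test (two-sided, Benjamini-Hochberg adjusted over the 2457 genes covered at least once). No gene passed an adjusted p of 0.05 (0% of the genes tested), and none of the 56 RPS genes did. The smallest adjusted p was 0.0524 by Fisher's exact test. The 142 genes at the smallest possible p of 0.00303 of this exact test fell short of the 149 needed. At an unadjusted p under 0.05, 16 RPS genes (28.6%) were covered less often in the combined mutants, beside 482 of all 2457 genes (19.6%) and 32 of 76 RPL genes (42.1%). Another 7 genes (0.285%) were covered more often at that level, no RPS gene among them. The shares covered less often do not start from a like base. All 7 other libraries covered 40 of the 56 RPS genes, beside 765 of the 2457 genes.

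The outcome depends on Sen1-AID replicate 2. Without it, Fisher's exact test called 305 of 2451 genes as less often covered (12.4%), and 11 of them were RPS genes, each with an adjusted p of 0.0381 (exact test). They included RPS0A, RPS1A, RPS10B, RPS15, RPS18A, RPS21A, RPS21B, RPS28B, RPS30A and RPS30B, and all 11 had peaks in all 6 remaining libraries and in none of the 4 combined mutant libraries. Of the genes with peaks in all 6, they were 11 of 51 RPS genes, beside 305 of 1027 genes overall.

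5 RPS genes had peaks in all 7 other libraries and in no combined mutant library (8.93% of those tested), beside 142 genes overall (5.78%). Of the genes covered in all 7 other libraries, they were 5 of 40 RPS genes, beside 142 of 765 genes overall. On that base the RPS share was the lower one. RPS18A encodes a head protein that reaches toward the transfer RNA in the peptidyl site, and stood at percentile 75.3 and 65.9 in WT. RPS15 encodes a head protein close to the decoding site, and stood at 80.9 and 78.8. RPS1A (87.8 and 82.3) encodes a platform protein at the exit of the mRNA channel, RPS21A (43.9 and 35.4) a protein of the body, and RPS30B (83.4 and 79.7) a protein near the aminoacyl site. All but RPS21A stood above the median of covered genes outside the ribosomal protein families in both WT lists.

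At the level of the family, the 14 genes covered in all 4 combined mutant libraries had a median of mean WT percentiles of 90.2, between 73.3 and 97. The 14 genes with a WT peak that were covered in none of the 4 had a median of 42.9, between 3.81 and 85. Genes covered in 1, 2 and 3 of the 4 libraries had medians of 85.6, 90.2 and 82.5. The medians thus did not rise step by step with the number of libraries. A further gene covered in none, RPS24A, had no WT peak. Both copies of RPS18, RPS21, RPS28 and RPS30 were among the genes covered in none.

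A total of 13 RPS genes kept a peak in every one of the 14 libraries, beside 196 of all 6431 nuclear genes. Of the genes covered in all 7 other auxin libraries, 13 of 40 RPS genes were covered in all 4 combined mutant libraries. Over all genes this held for 224 of 765, a share close to that of the RPS genes. The 13 RPS genes included RPS2, RPS3, RPS13 and RPS20, both copies of RPS7, RPS14 and RPS23, and RPS22A. RPS2 and RPS3 line the entry of the mRNA channel, and RPS23 reaches into the decoding centre and sets its accuracy. RPS11B joined them in all 4 combined mutant libraries and was missing only from Sen1-AID replicate 2.

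Sorted by the place of the protein in the subunit, a grouping made after the data were seen, 12 of 34 genes of body and platform proteins and 2 of 22 genes of head proteins were covered in all 4 combined mutant libraries. 7 body and platform genes and 8 head genes were covered in none. Head genes numbered 11 and 6 for h1D-h2D Sen1-AID and 6 and 6 for h1D-h2D Top1-AID, against 21 and 22 in WT. Body and platform genes numbered 19 and 19 for h1D-h2D Sen1-AID and 24 and 20 for h1D-h2D Top1-AID, against 33 and 33 in WT.

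The genes left without a peak differed in part between the combined mutants, and also between replicates of the same mutant. Both held for RPS genes and over all genes. Of the 54 RPS genes covered in both WT libraries, 22 had no peak in either h1D-h2D Sen1-AID library (40.7%, beside 54.1% of all genes covered in both WT libraries), and 22 had none in either h1D-h2D Top1-AID library (40.7%, again beside 54.1%). Both h1D-h2D Sen1-AID libraries kept 23 of the 54 (42.6%, beside 32.6% of all genes covered in both WT libraries). Both h1D-h2D Top1-AID libraries kept 24 (44.4%, beside 29.9%).

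8 RPS genes were missing from both h1D-h2D Sen1-AID libraries and present in both h1D-h2D Top1-AID libraries (14.8%, beside 7.69% of all genes). They were both copies of RPS9, whose protein acts in translational accuracy, and RPS0B, RPS11A, RPS16B, RPS19A, RPS24B and RPS26A.

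3 RPS genes showed the reverse, present in h1D-h2D Sen1-AID (both replicates) and missing from h1D-h2D Top1-AID (both replicates) (5.56%, beside 8.61% of all genes). RPS1B and RPS19B were among them.

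Where a small subunit gene kept its peak in the combined mutants, the peak mostly reached less far upstream of the gene or stopped inside it. In WT, peaks on RPS genes covered the whole gene and both flanks. The reach of a peak is the distance from a gene end to the outermost edge of the overlapping peaks, and it is negative where the peak stops inside the gene. Gene ends are the ends of the coding sequence, without untranslated regions. The median upstream reach past the 5′ end was -38.5 and -31 bp for h1D-h2D Sen1-AID and 352 and 79.5 bp for h1D-h2D Top1-AID, against 996.5 and 811 bp in WT. The median downstream reach past the 3′ end was 1205 and 1174 bp for h1D-h2D Sen1-AID and 649.5 and 547.5 bp for h1D-h2D Top1-AID, against 756.5 and 710 bp in WT. The upstream side was thus shorter in both mutants, while the median downstream side was longer in h1D-h2D Sen1-AID and shorter in h1D-h2D Top1-AID.

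Peaks that held the 3′ end of an RPS gene but not its 5′ end numbered 16 of 30 and 14 of 25 in h1D-h2D Sen1-AID. They numbered 5 of 30 and 10 of 26 in h1D-h2D Top1-AID, and 0 in WT, h1D-h2D and Top1-AID. Sen1-AID had 0 in replicate 1 and 7 of 40 in replicate 2. The share was 41.1% ± 18 in the 4 combined mutant libraries and 2.5% ± 6.61 in the other 7, and 0% in the others without Sen1-AID replicate 2. Large subunit genes had like shares, with 66.7% and 50% for h1D-h2D Sen1-AID and 19.5% and 52.9% for h1D-h2D Top1-AID, against 0% in both WT libraries.

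The position of the peaks along the genes shows the same asymmetry. At 500 bp before the 5′ end, 6 and 4 of the 56 RPS genes had a peak for h1D-h2D Sen1-AID and 10 and 2 for h1D-h2D Top1-AID, against 53 and 51 in WT. RPL genes numbered 4 and 6 of 76 for h1D-h2D Sen1-AID and 21 and 8 for h1D-h2D Top1-AID, against 75 and 67 in WT. Other protein-coding genes covered in both WT libraries stood at 17.6% and 21.5% for h1D-h2D Sen1-AID. They stood at 19.1% and 15.5% for h1D-h2D Top1-AID, against 63.5% and 53.8% in WT. At 1000 bp past the 3′ end, 17 and 16 RPS genes had a peak for h1D-h2D Sen1-AID, 7 and 3 for h1D-h2D Top1-AID, against 13 and 12 in WT. So h1D-h2D Sen1-AID had more RPS genes with a peak at that distance than WT, although fewer RPS genes were covered. Sen1-AID had 14 and 6 there. RPL genes numbered 22 and 24 for h1D-h2D Sen1-AID, against 24 and 18 in WT. The other protein-coding genes stood at 21.8% and 22.7%, against 43.1% and 37.6% in WT. A peak counted at such a position may lie beside the gene without overlapping it.

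**Figure D3:**
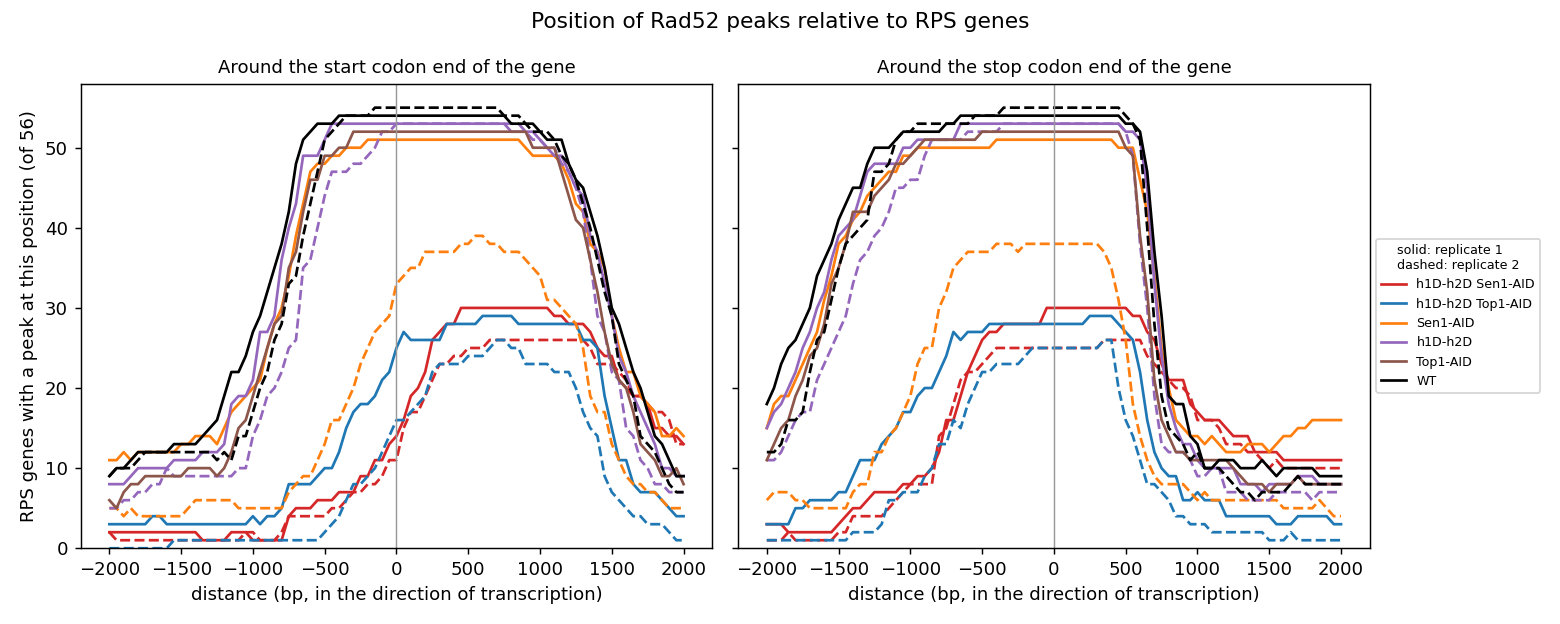
Number of RPS genes, of 56, with a Rad52 peak at each position from 2000 bp before to 2000 bp past the start codon end (left) and the stop codon end (right), per library. At 500 bp before the start codon end the 4 combined mutant libraries hold 2 to 10 genes, against 53 and 51 in WT.

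Peak width moved with these values. The median width of peaks on RPS genes was 1792 ± 288 bp in the combined mutants and 2366 ± 360 bp in the others (SD, n = 4 and 7), and 1582 bp in Sen1-AID replicate 2, which also had a short upstream reach of 310 bp. Over all peaks of a list, the median width was 2043 and 2061 bp for h1D-h2D Sen1-AID and 1868 and 1400 bp for h1D-h2D Top1-AID, against 2196.5 and 1766 bp in WT. The part of peak width in the shorter reach was not tested.

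For the 224 nuclear genes with a peak in all 11 auxin libraries, the mean upstream reach was compared between the combined mutants and the other 7 libraries by an exact two-sided permutation test over all 330 splits, adjusted by Benjamini and Hochberg over the 224 genes. The reach fell in 48 of them (21.4%) and rose in 7 (3.12%). The 13 RPS genes tested are those covered in all 14 libraries, and 11 of these fell (84.6%), while 7 of 14 RPL genes did. All 13 differences were negative, with a median of -649.3 bp, beside -103.4 bp over all 224 genes and -731.8 bp over the 14 RPL genes. All 4 combined mutant libraries lay below the other 7 for 6 of the 13 RPS genes, beside 32 of the 224 genes (14.3%). Once Sen1-AID replicate 2 was left out, they did so for 10 of the 13, beside 83 of 224 (37.1%).

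These calls sit near the limit of an 11-library design and do not hold under the removal of most libraries. No gene, and so no RPS gene, passed in the shorter direction without WT replicate 1, WT replicate 2, Sen1-AID replicate 1, either h1D-h2D replicate, Top1-AID, either h1D-h2D Sen1-AID replicate or h1D-h2D Top1-AID replicate 2, where the smallest p the exact permutation test can give rises to 0.00476 or 0.00833. Without Sen1-AID replicate 2, 96 of 234 genes (41%) and 13 of 14 RPS genes passed (RPS3 and RPS11B among them, all but RPS23A), and without h1D-h2D Top1-AID replicate 1, 43 genes and 9 RPS genes did. In each of these 11 removals all RPS genes tested kept a shorter mean upstream reach in the combined mutants, and 11 or more had an unadjusted p under 0.05 in the exact permutation test.

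Among the genes of the platform and body, RPS14A had peaks that ended inside the gene in 3 of 4 combined mutant libraries. Its upstream reach was -37 and -35 bp for h1D-h2D Sen1-AID and 823 and -96 bp for h1D-h2D Top1-AID, against a lowest, median and highest value of 918, 1377 and 1538 bp in the other 7 libraries. The groups did not overlap, and the difference of -1072 bp had an adjusted p of 0.0367 in the exact permutation test. RPS7A, whose protein is ubiquitylated in some forms of translational control, reached -169 and -164 bp for h1D-h2D Sen1-AID and 23 and -267 bp for h1D-h2D Top1-AID, against 26, 942 and 1021 bp. That difference was -966 bp (adjusted p = 0.0367, exact permutation test), and the value of 26 bp was that of Sen1-AID replicate 2. In RPS7B the reach was -449 and -479 bp for h1D-h2D Sen1-AID and -303 and -675 bp for h1D-h2D Top1-AID, against -511, 678 and 779 bp. Here Sen1-AID replicate 2 lay among the combined mutants, and the difference was -998 bp (adjusted p = 0.0494, exact permutation test).

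RPS22A had the largest difference of the 13, and it belongs to the peak shared with RPS14B. Its upstream reach was 253 and 98 bp for h1D-h2D Sen1-AID and 106 and -242 bp for h1D-h2D Top1-AID, against 368, 1985 and 2055 bp in the others, a difference of -1691 bp (adjusted p = 0.0367, exact permutation test). On the RPS14B side of the same peak the upstream reach was 440 and 370 bp for h1D-h2D Sen1-AID and 385 and 372 bp for h1D-h2D Top1-AID, against 461, 650 and 701 bp, a difference of -232 bp (adjusted p = 0.0367, exact permutation test). The peak thus drew in on both sides, and more on the side of RPS22A, where RPL39 lies 630 bp away. RPS13 fell too, by a difference of -451 bp (adjusted p = 0.0367, exact permutation test), and its groups overlapped.

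Among genes for proteins of the mRNA channel, the decoding centre and the head, RPS2 reached 795 and 80 bp for h1D-h2D Sen1-AID and 52 and 42 bp for h1D-h2D Top1-AID, against 166, 875 and 963 bp, a difference of -542 bp (adjusted p = 0.0416, exact permutation test). RPS23B reached -40 and -37 bp for h1D-h2D Sen1-AID and 34 and -160 bp for h1D-h2D Top1-AID, against 30, 677 and 774 bp, a difference of -650 bp (adjusted p = 0.0367, exact permutation test). RPS20, which encodes a head protein, had a difference of -349 bp (adjusted p = 0.0416, exact permutation test). In each of these 3 genes a combined mutant library lay above the lowest of the others.

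RPS3 and RPS23A did not pass this test. RPS3 reached -61 and -9 bp for h1D-h2D Sen1-AID and 131 and 81 bp for h1D-h2D Top1-AID, against 349, 1471 and 3395 bp, and had an adjusted p of 0.0669 in the exact permutation test, or 0.0293 with the replicate number as a block, under which it was called. Its groups did not overlap. RPS23A split by mutant. Its upstream reach came to 774 and 781 bp for h1D-h2D Sen1-AID, near the median of 772 bp of the other 7 libraries, and -45 and -227 bp in h1D-h2D Top1-AID (adjusted p = 0.485, exact permutation test).

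**Figure D4:**
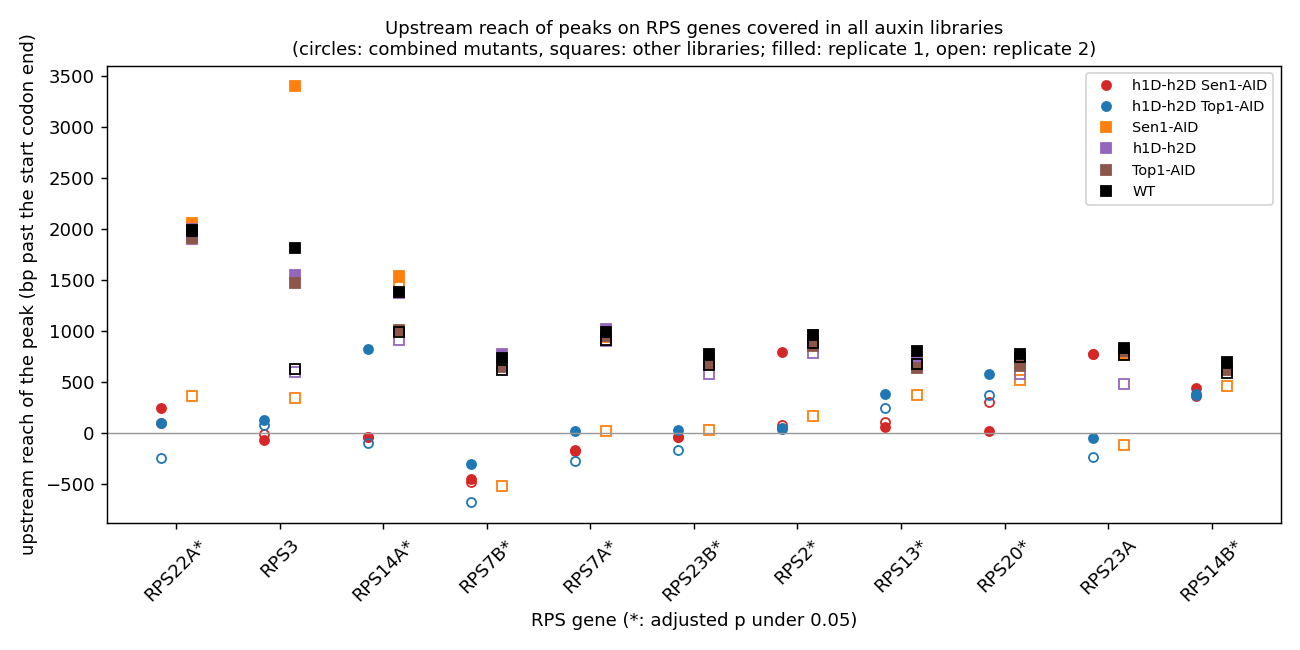
Upstream reach in bp past the start codon end of the peaks on 11 of the 13 RPS genes tested, ordered by the difference between the combined mutants (circles) and the other 7 auxin libraries (squares); points are single libraries and an asterisk marks an adjusted p under 0.05. Open orange squares are Sen1-AID replicate 2, which lies with or near the circles in genes that include RPS7B, RPS7A, RPS23B, RPS23A, RPS13, RPS2 and RPS20.

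Set against WT alone, the number of small subunit genes that moved was large in both combined mutants. With 2 libraries against 2 no exact test can go below p = 0.333, so these are counts of genes for which both mutant libraries lay outside the WT range. In h1D-h2D Sen1-AID the upstream reach was shorter in 22 of the 23 RPS genes covered in all 4 libraries, beside 56.6% of the 458 genes so covered. In h1D-h2D Top1-AID it was shorter in 24 of 24, beside 73.3% of 420 genes. RPL genes showed 23 of 24 for h1D-h2D Sen1-AID and 27 of 29 for h1D-h2D Top1-AID. Of the protein-coding genes outside the ribosomal protein families, 45.4% were shorter for h1D-h2D Sen1-AID and 64.3% for h1D-h2D Top1-AID. The single defects had smaller counts, with 10 of 40 RPS genes shorter in Sen1-AID (29.4% of all genes) and 3 of 52 in h1D-h2D (17.6% of all genes).

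Downstream, the counts against WT were mixed in h1D-h2D Sen1-AID and went one way in h1D-h2D Top1-AID. In h1D-h2D Sen1-AID 13 of 23 RPS genes had a longer downstream reach in both libraries, beside 47.8% of all genes, and 6 of 23 a shorter one, beside 33.2%. The medians were 1166 bp in the mutant and 758 bp in WT. In h1D-h2D Top1-AID none of 24 was longer, beside 2.62% of all genes, and 20 of 24 were shorter, beside 65.2%. The 13 genes that lengthened were 56.5% of those counted, near the 47.8% of all genes.

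Where the downstream reach was long, the peaks also covered neighbouring genes. Reach gives only the outer edge of an overlapping peak. A longer peak of the RPS gene and a peak centred on its neighbour cannot be told apart by it. RPS23A, at chromosome VII 726974-727730 on the plus strand, had a downstream reach of 2687 and 2517 bp in h1D-h2D Sen1-AID, against 948 and 766 bp in WT. Its peaks ended at 730417 and 730247 in the mutant, past NUP57 and inside COG2, against 728678 and 728496 in WT. RPS7A, at chromosome XV 505794-506767 on the plus strand, reached 1523 and 1435 bp downstream in h1D-h2D Sen1-AID, against 625 and 604 bp in WT, which took the peak into NUP1. In h1D-h2D Top1-AID the downstream reach of RPS7A was 560 and 489 bp, below both WT values.

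Further genes with a long downstream reach, some longer than that of RPS23A, are named after their values were seen. RPS16A reached 5442 and 5159 bp downstream in h1D-h2D Sen1-AID, against 711 and 682 bp in WT, and the peak covered FDO1 and NDE1 and entered TIF34. RPS4B, a gene for a body protein, reached 5356 and 3400 bp, against 670 and 606 bp, across SMN1 into PPX1 and, in replicate 1, RPN10. RPS6B, whose protein is phosphorylated when the TOR pathway is active, reached 4076 and 1448 bp, against 684 and 610 bp. In all 3 genes the mutant peaks stopped short of the 5′ end, with an upstream reach of -225 and -285 bp in RPS16A, -87 and -31 bp in RPS4B and -234 and -241 bp in RPS6B. On RPS27B, at chromosome VIII 147871-148669, the mutant peaks also covered the transfer RNA gene YNCH0006C downstream. The WT peaks did not reach that gene.

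Sen1 depletion as such gave no call for a small subunit gene. The downstream reach was compared between the 4 Sen1-depleted libraries (h1D-h2D Sen1-AID and Sen1-AID) and the other 7 in the same exact permutation test. It rose in 49 of 224 genes (21.9%) and fell in none (8 genes were shorter at an unadjusted p under 0.05). None of the 13 RPS genes passed, and none had an unadjusted p under 0.05 in the exact permutation test. In 10 of the 13 the mean was longer, with a median difference of 116.4 bp, beside 107.6 bp over all genes. Among the 10 RPS genes with the smallest p were RPS23A (884 bp), RPS7A (380 bp), RPS7B (309 bp), RPS23B (132 bp), RPS2 (437 bp), RPS14B (-686 bp), RPS20 (-65 bp), RPS22A (-87 bp) and RPS14A (116 bp), with adjusted p-values of 0.201 to 0.591 in the exact permutation test. In RPS23A and RPS7A the long values came from h1D-h2D Sen1-AID. The downstream reach of RPS23A, for example, was 2687 and 2517 bp there, against 941 and 543 bp in Sen1-AID. Set against WT alone, both Sen1-AID libraries were longer in 2 of 40 RPS genes and shorter in 10. The median RPS difference was -93.25 bp, replicate 2 included. Over all 895 genes so covered, 165 were longer and 165 shorter, with a median of -36 bp. The 7 libraries of the pooled comparison also held h1D-h2D Top1-AID, where the median downstream reach was shorter than in WT. Without either h1D-h2D Sen1-AID library no gene was called longer, and without Sen1-AID replicate 1 there were 33. Without Sen1-AID replicate 2 there were 59, of which 1 was an RPS gene.

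Upstream, Sen1 depletion gave a longer reach in 16 of 224 genes (7.14%), with no RPS gene called and none at an unadjusted p under 0.05 in the exact permutation test. The RPS median difference was -262.3 bp, beside -24.71 bp over all genes. The count of 16 genes went to 0 when any 1 of the 11 libraries was left out. For the downstream reach between the combined mutants and the others, no gene was called by the exact permutation test (0%). This comparison pools the 2 combined mutants, and their median downstream reach on RPS genes lay on opposite sides of WT. Opposed shifts can cancel in the pooled mean. In this comparison 56 genes had an unadjusted p under 0.05, and 3 of them were RPS genes with a shorter reach, RPS14B (-1691 bp), RPS22A (-232 bp) and RPS3 (-97 bp). The RPS14B and RPS22A values are the other edges of the peak they share. Without Sen1-AID replicate 2 the test called 26 genes, with these 3 among them (-1921, -259 and -108 bp, adjusted p = 0.0429 each, exact permutation test). These comparisons use the same 11 libraries in different groupings, so their results are not independent.

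The copies of a duplicated gene could differ in how often they were covered. Of the 24 pairs, 9 had equal numbers of covered libraries, and in 4 pairs, RPS7, RPS14 and RPS23 among them, both copies were covered in all 14. Copy A had more covered libraries in 6 pairs and copy B in 9. The count differed by 3 or more libraries in 8 pairs.

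The widest gaps were in RPS18 and RPS24. RPS18A had a peak in 10 libraries and RPS18B in 2, both of them WT. In WT, RPS18A stood at percentile 75.3 and 65.9 and RPS18B at 6.23 and 14.8. RPS24A had a peak in 4 libraries and RPS24B in 12. The 4 libraries of RPS24A were h1D-h2D replicate 2 and the 3 Gal-HO libraries. RPS25A, covered in 4, and RPS25B, covered in 11, differed likewise.

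RPS28A was covered in 3 libraries and RPS28B, known for binding its own mRNA to promote its decay, in 9. Other pairs that differed by 3 or more included RPS22 (14 for A and 11 for B), RPS0 (9 and 12) and RPS27 (9 and 12). A pair could thus favour either copy. Where both copies of a pair had peaks in at least 3 libraries, which held for 23 pairs, the same copy stood higher in every such library in 4.

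**Figure D5:**
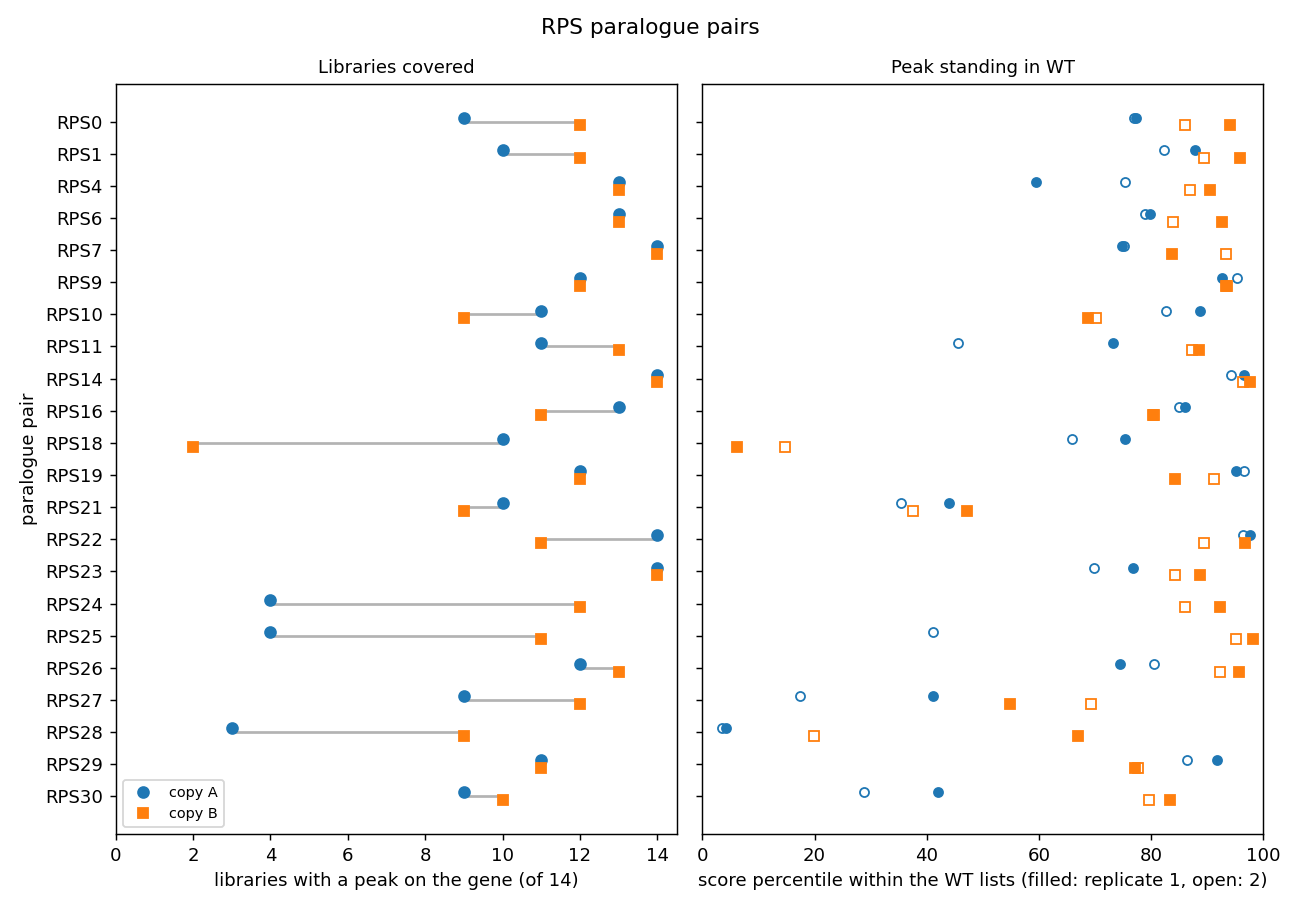
RPS pairs (22 of the 24): on the left the number of libraries, of 14, with a peak on copy A (circles) and copy B (squares), and on the right the score percentile of each copy in the WT lists. RPS18, RPS24, RPS25 and RPS28 show the widest gaps on the left, with 10 and 2, 4 and 12, 4 and 11, and 3 and 9 libraries for A and B.

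Some small subunit genes have other strongly transcribed genes beside them. A gene for a transfer RNA, small nucleolar RNA or similar small RNA lay within 1 kb of 7 RPS genes. These were covered in 6 and 4 cases for h1D-h2D Sen1-AID and 4 and 4 for h1D-h2D Top1-AID, against 7 and 7 in WT. Each of the 7 was covered in at least 1 combined mutant library, while 15 of the other 49 RPS genes were covered in none. Examples are RPS14A, 217 bp from SNR65, RPS7B, 278 bp from a transfer RNA gene, and RPS22B, which holds SNR44 inside the gene. A peak over such a gene can cover its neighbour, and a single peak covered RPS14A and SNR65 in all 14 libraries.

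Another RPS gene or an RPL gene lay within 1 kb of 8 RPS genes. These were covered in 4 and 4 cases for h1D-h2D Sen1-AID and 7 and 6 for h1D-h2D Top1-AID, against 8 and 8 in WT. The 8 single-copy genes were covered in 7 and 5 cases for h1D-h2D Sen1-AID and 4 and 5 for h1D-h2D Top1-AID, against 8 and 8 in WT. Their share in the combined mutants was not compared by a test.

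The Gal-HO libraries covered nearly the same number of RPS genes as WT, with 53 and 52 in galactose and 54 in dextrose. With 2 libraries against 1 no exact test can go below p = 0.333, so the values stand side by side. The median upstream reach was 673 and 911 bp in galactose and 913.5 bp in dextrose. Galactose replicate 1 thus had a shorter reach than the other Gal-HO libraries, which differed by less than 3 bp. It also had 8 RPS genes with a peak over the 3′ end only, against 1 in galactose replicate 2 and 1 in dextrose.

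The low-standing copies of 4 pairs were covered in different libraries in the Gal-HO strain and in the WT of the auxin experiment, and strain, medium and auxin cannot be told apart there. RPS24A and RPS25A were covered in all 3 Gal-HO libraries, against 0 and 1 of the 2 WT libraries. RPS18B and RPS28A were covered in no Gal-HO library and in both WT libraries.

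Genes with related functions are set beside the 27.5% and 23.2% of all nuclear genes covered in WT. Of 18 genes for small subunit associated proteins and chaperones, 2 and 2 had a peak for h1D-h2D Sen1-AID and 1 and 1 for h1D-h2D Top1-AID, against 6 and 3 in WT. ASC1, whose protein binds the head of the small subunit, was covered in all 14 libraries with a mean WT percentile of 97.6. Of 47 genes of the SSU processome, the particle that assembles the subunit in the nucleolus, 6 and 6 had a peak for h1D-h2D Sen1-AID and 3 and 1 for h1D-h2D Top1-AID, against 8 and 6 in WT. Of 16 regulators of ribosomal protein gene transcription 1 was covered in each combined mutant library, against 3 and 2 in WT.

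The 31 genes of the mitochondrial small subunit had 4 and 3 covered members for h1D-h2D Sen1-AID and 2 and 1 for h1D-h2D Top1-AID, against 7 and 7 in WT. The 29 translation initiation genes had 9 and 7 for h1D-h2D Sen1-AID and 5 and 3 for h1D-h2D Top1-AID, against 9 and 10 in WT. GCD11 and RPG1, which encode subunits of initiation factors, were covered in all 14 libraries. Of the 6 stalk protein genes (RPP), 1 and 1 had a peak for h1D-h2D Sen1-AID and 1 and 0 for h1D-h2D Top1-AID, against 4 and 4 in WT. At an unadjusted p under 0.05 in Fisher's exact test, genes with at least 1 peak were covered less often in the combined mutants in 3 of 5 cases for the stalk, 3 of 13 for the mitochondrial small subunit, 2 of 8 for associated proteins, 2 of 16 for initiation, 0 of 18 for the processome and 0 of 5 for regulators, beside 19.6% of all genes tested.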

How the data were processed

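Rad52 was mapped by ChIP-seq in 14 yeast libraries, with 1 peak list per library. Each deposited list gives the position of every peak with a score. This score is the authors' own, and its scale is not given in the sources used here. It therefore served as a percentile within a list, (rank - 0.5) over the number of peaks. The exception is the stricter score limit among the alternatives, which set the same cutoff for all lists. Bowtie2, MACS2 and the build sacCer3 are named in the submitters' processing notes, so the lists are per the labels on that build. Their versions and parameters, and whether a control library was used, are not given in the sources used here. Read depth is unknown, and no interval that needs it is given.

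Gene positions came from the RefSeq R64 table, in which 96.4% of coding genes have a length that is a multiple of 3, so gene ends are coding ends. A gene counted as covered at an overlap of at least 1 bp. The 5 mitochondrial peaks were left out, and 7176 nuclear peaks stayed. Presence was tested by Fisher's exact test and reach by exact permutation of library labels, with Benjamini-Hochberg adjustment over all genes tested (Python 3.11.15, numpy 2.4.6, scipy 1.17.1, pandas 2.3.3, matplotlib 3.10.9), and the scripts were tested on simulated data. The members and lists were chosen with earlier results of these data known.

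Genes named are the 10 RPS genes with the highest mean WT percentile, those not covered in a WT library, those covered in all 14 libraries, those in all 7 other libraries and no combined mutant library, those lost in 1 combined mutant and kept in the other, up to 10 with the smallest p in each reach test, pairs that differ by 3 or more libraries, and up to 4 examples of other lists. Some genes that this rule names are not reported here. Others are marked as chosen after their values were seen. The alternatives were a stricter score limit (the pooled median score of 194.5), lists of equal length, peaks within 1 kb joined, at least 50% of the gene covered, exactly 1 peak per gene, all nuclear genes tested, each combined mutant alone, a replicate block and the removal of each library.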

Additional observations from a re-analysis of the deposited data

Results flagged for a closer look

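Sen1-AID replicate 2 stood far from the other 6 libraries without a combined defect in several measures. It covered 40 RPS genes (the nearest other library covered 51), 17.5% of its RPS peaks held the 3′ end only (0% in the nearest), and its RPS peaks had a median width of 1582 bp (2356 bp in the nearest). Its upstream reach was also far below the others in 7 of the genes tested, with 380 bp in RPS13, 166 bp in RPS2, -114 bp in RPS23A, 368 bp in RPS22A, -511 bp in RPS7B, 26 bp in RPS7A and 30 bp in RPS23B. These values belong to a single library and are not independent of each other.

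In the combined mutants, the upstream reach of RPS14A in h1D-h2D Top1-AID replicate 1 was 823 bp, while the nearest of the other 3 libraries was at -35 bp. The upstream reach of RPS2 in h1D-h2D Sen1-AID replicate 1 was 795 bp, and the nearest was at 80 bp. In all, 12 of 32 groups of values checked held a library this far out, and in most of them it was Sen1-AID replicate 2. The groups share libraries and are not independent, so a number expected by chance cannot be set beside this count.

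In 2 of the 21 RPS genes covered in all 8 libraries concerned, both Sen1-depleted libraries lay outside the range of their matching strain, on opposite sides with and without RNase H. Genes whose means went opposite ways but whose libraries overlapped are not counted. The upstream reach of RPS14A differed by -1184 bp between Sen1-depleted libraries and their matching strain where RNase H was absent and by 296 bp where it was present, a gap of -1480 bp. The downstream reach of RPS7A differed by 836 bp where RNase H was absent and by -150 bp where it was present, a gap of 986 bp. These differences were not tested. The same count was not made over all genes, so it cannot be read as a trait of the RPS genes.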

How the results depend on the processing

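With a stricter score limit the RPS genes covered differed by -32.5 between the combined mutants and the others, Sen1 depletion lengthened the downstream reach in 10 genes and the upstream reach in 0, and the upstream reach fell in the combined mutants in 7 genes, 2 of them RPS genes. With lists of equal length these values were -12.9, 26 and 0, the upstream reach fell in 30 genes, and the downstream reach changed in 7 genes, 2 of them RPS genes. These settings leave 38 and 113 genes to test. The stricter limit sets the same score cutoff for all lists, and whether scores compare between lists is unknown. Sen1 depletion lengthened the upstream reach in 0 genes with at least 50% of the gene covered and in 0 genes with a replicate block.

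The labels do not say that replicate numbers mark a shared batch. Of 10 correlations between the replicate differences of 2 groups, 3 were over 0.1 for presence (range -0.0372 to 0.372) and 5 for the upstream reach (range -0.0523 to 0.72), so not every pair of groups deviated together and the block was kept as an alternative. With the replicate block the upstream reach fell in the combined mutants in 68 genes, against 48 without it, and in 12 RPS genes, since RPS3 was also called (difference of -1364 bp). Sen1 depletion lengthened the downstream reach in 47 genes, against 49, and 0 genes were called for presence. Leaving out each library in turn gave 0 to 305 genes and 0 to 11 RPS genes less often covered in the combined mutants, and a difference of -25.2 to -22.5 covered RPS genes. The upstream reach fell in the combined mutants in 0 to 96 genes and 0 to 13 RPS genes, and the downstream reach changed in 0 to 26 genes and 0 to 3 RPS genes. Under Sen1 depletion the downstream reach rose in 0 to 59 genes and 0 to 1 RPS genes, and the upstream reach in 0 genes. The share of 3′-only peaks differed by 33.7 to 46.8 percentage points. No upstream reach difference of the RPS genes tested between the combined mutants and the others changed sign under these settings. Any removal raises the smallest p that the exact permutation test can give, and other causes of lost calls were not tested. Unknown read depth limits all comparisons of presence.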
